A study of Homo sapiens with 6 samples.

Results

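The DNA replication machinery was examined as a group of 45 human genes: the 9 genes of origin licensing, 12 of the replicative helicase, 8 of the replicative polymerases, 6 of the sliding clamp and its loader, 6 of single-strand binding and strand joining, and 4 of deoxynucleotide supply. They were listed by gene symbol and role, with earlier results of these data known. All 45 were found among the 60664 genes of the deposited count table, and all 45 were among the 15130 genes with enough counts to be tested. RNA-seq was performed on 2 groups of 3 libraries each. The SiHa PR group served as control, and the SiHa PR P4HA3 group carried introduced P4HA3, which encodes a catalytic subunit of collagen prolyl 4-hydroxylase. SiHa is an established human cervical squamous carcinoma line, and PR denotes the parental cells of a derivative selected for lymph node metastasis. The comparison addressed which transcripts differ when P4HA3 is overexpressed in these parental cells. Whether the overexpressing cells were a clone or a pool is not given in the sources used here. For these libraries the paper does not say whether the SiHa PR control cells carried an empty vector. The methods describe both a constitutive and a doxycycline-inducible lentiviral vector, and which of them was sequenced is also not given there.

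DNA replication is prepared in G1, when the origin recognition complex (ORC), CDC6 and CDT1 load the ring of MCM2 to MCM7 onto DNA. In S phase, CDC45 and the GINS complex join the ring to form the active helicase. DNA polymerase alpha and primase then lay down primers, the RFC complex loads the clamp PCNA, polymerases delta and epsilon copy the strands, and FEN1, DNA2 and DNA ligase I finish the lagging strand. Many of these genes are transcribed under E2F factors at the G1/S transition, and deoxynucleotides are supplied by ribonucleotide reductase (RRM1 and RRM2), thymidylate synthase (TYMS) and thymidine kinase (TK1).

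The total count per library was between 21773488 and 24939948, and the members took between 0.593% and 0.627% of the counts. Levels are given as CPM, counts scaled to a common library size and normalized by the trimmed mean of M values (TMM). Every adjusted p comes from the two-sided quasi-likelihood test of edgeR, adjusted by the Benjamini-Hochberg method over the 15130 genes, and a gene was called at an adjusted p under 0.05. P4HA3 itself was at 3.53, 2.91 and 3.80 CPM in SiHa PR replicates 1 to 3 and 1934, 1991 and 1936 CPM in SiHa PR P4HA3 replicates 1 to 3. It rose from 3.41 ± 0.457 to 1954 ± 32.6 CPM (SD, n = 3 per group), with a log2 fold change of 9.15 (SE 0.101, adjusted p = 3.19e-12). Of 9 epithelial markers, 6 were above 1 CPM, and their summed level ran from 6637 to 7439 CPM in the SiHa PR libraries and from 6597 to 7600 CPM in the P4HA3 libraries, with KRT7, KRT8 and KRT18 carrying most of it. Of these 6, KRT18 (log2 fold change -0.40, adjusted p = 0.0108), CDH1 (-0.77, adjusted p = 0.00114) and CLDN4 (-0.93, adjusted p = 0.0192) fell. A protocol field of the deposit describes smooth muscle tissue, and of 9 smooth muscle markers MYH11, DES and CNN1 were near 0 in all 6 libraries. ACTG2 had 0, 1 and 30 counts in SiHa PR replicates 1 to 3 and 40, 1 and 44 in SiHa PR P4HA3 replicates 1 to 3, and was not called. SMTN, ACTA2 and TAGLN were above 1 CPM in every library, and TAGLN rose from 8.84 ± 0.441 to 17.2 ± 0.613 CPM (SD, n = 3 per group), with a log2 fold change of 0.96 (SE 0.0876, adjusted p = 0.000436). The part of these markers in the results was not tested. Summed levels were 104 to 115 CPM against 111 to 129.9 CPM for the smooth muscle markers, 169.9 to 179.9 CPM against 135 to 171 CPM for 6 fibroblast markers, and 91.3 to 109.7 CPM against 35.1 to 50.9 CPM for 6 leukocyte markers. The leukocyte sum was almost all CD14, and CD3E and MS4A1 were at 0 in every library. In bulk RNA, fewer cells in S phase and less RNA per cell cannot be told apart. Nothing in the labels says that the 3 libraries of a group came from separate cultures, so the p-values measure the spread between these libraries, which may be technical.

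**Figure D1:**
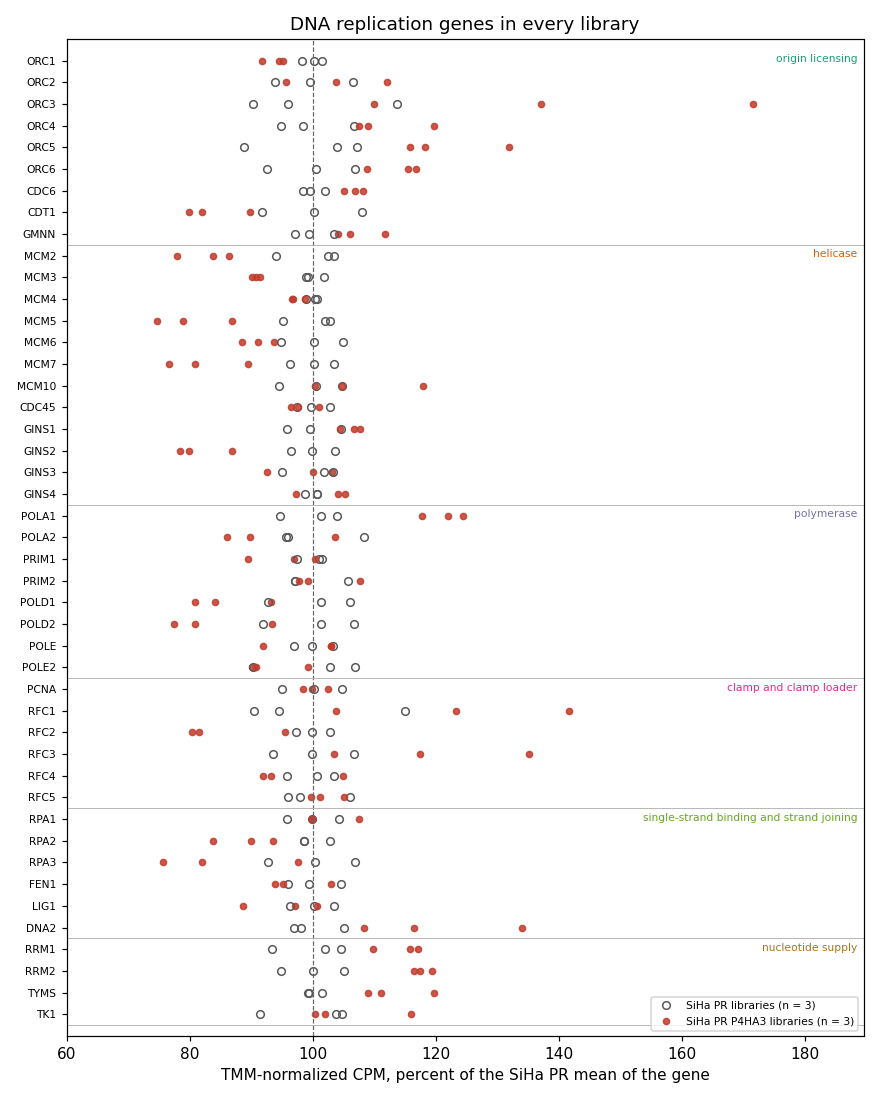
CPM of the 45 members in each library (open points, 3 SiHa PR libraries; red points, 3 SiHa PR P4HA3 libraries), as percent of the gene's SiHa PR mean, grouped by role. The red points of MCM2, MCM5, MCM7 and GINS2 lie left of the open ones and those of RRM1, RRM2 and TYMS right of them, and 24 of the 45 genes show overlapping groups.

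The machinery did not move in 1 direction. Of the 45 members, 5 rose in P4HA3-overexpressing cells (ORC3, POLA1, RRM1, RRM2 and TYMS), 6 fell (CDT1, MCM2, MCM5, MCM7, GINS2 and POLD2) and 34 did not pass the test. The members called in either direction were 24.4% of the 45, beside 20.8% of all genes tested. By direction they were 11.1% higher and 13.3% lower, beside 9.36% and 11.4% of all genes. The median log2 fold change of the members was -0.01, beside 0.01 for all genes tested, with 22 members above 0 and 23 below. The log2 fold changes ran from -0.32 for MCM5 to 0.48 for ORC3, and no member differed by more than 1.39-fold. All 3 P4HA3 libraries lay above all 3 SiHa PR libraries for 10 members (22.2%) and below them for 11 (24.4%), beside 19.7% and 20.4% of all genes. The adjusted p-values of the called members ran from 0.0110 for GINS2 to 0.0494 for POLD2. Without SiHa PR replicate 1, SiHa PR replicate 2 or SiHa PR P4HA3 replicate 3, edgeR called 0 of the 45 members in either direction, with 15, 15 and 16 members at an unadjusted p under 0.05, against 22 with all libraries. In the same fits the share of all genes called in either direction fell from 20.8% to 5.09%, 3.47% and 5.89%. No other tool was run without these libraries. Without SiHa PR P4HA3 replicate 2 there were 2 higher and 4 lower, and without SiHa PR P4HA3 replicate 1 there were 7 higher and 10 lower.

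**Figure D2:**
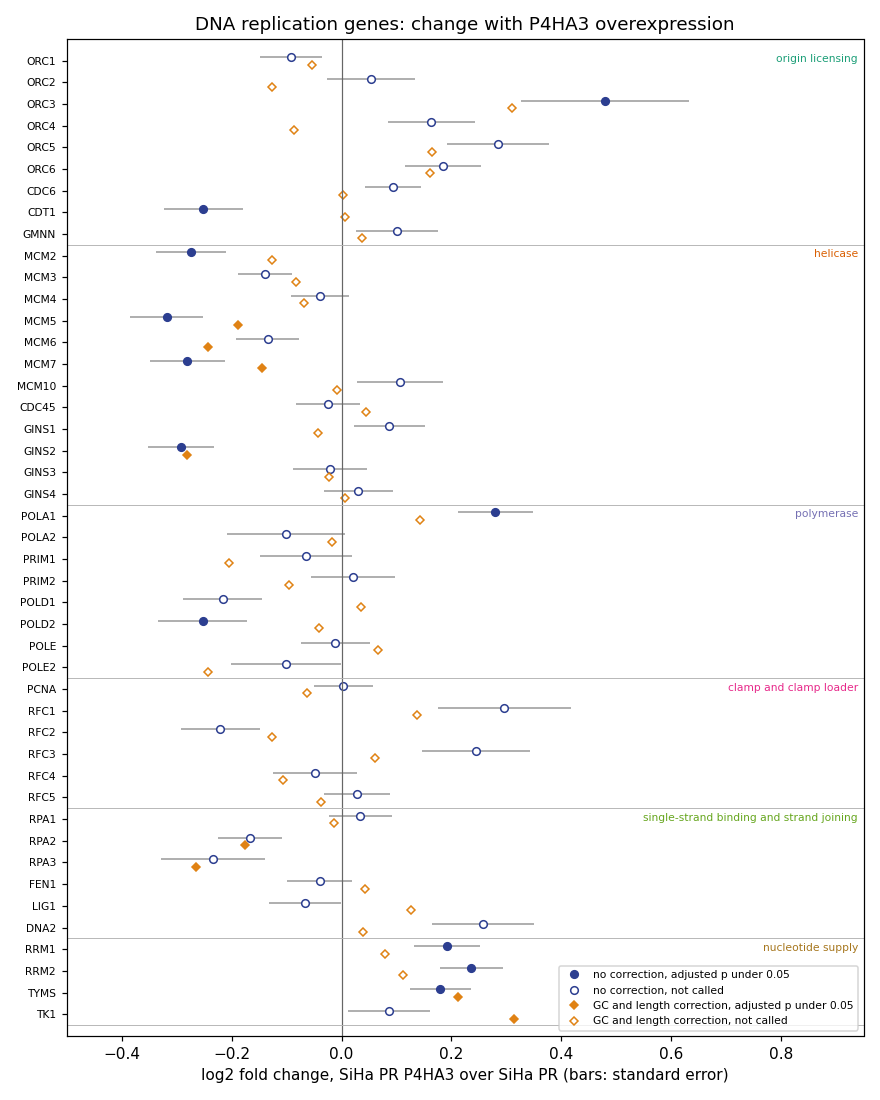
log2 fold change (SiHa PR P4HA3 over SiHa PR) of the 45 members by role, in the fit without correction (circles, with bars for the standard error) and in the fit corrected for GC content and transcript length (diamonds). Filled marks have an adjusted p under 0.05. The 4 called helicase genes lie to the left of 0 and the 3 called nucleotide supply genes to the right, with circles between -0.32 and 0.24.

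GC content, here the share of G and C bases in a gene's canonical transcript, moved with the log2 fold changes. Across all genes tested the log2 fold change fell with GC content, with a Spearman correlation of -0.58 over 15107 genes. Across the 45 members Pearson's correlation was -0.64 and Spearman's -0.66. Genes share the same 6 libraries and are not independent replicates, so these are descriptions. Of the 30 members below the median GC content of all genes tested (49.3%), 5 rose and 1 fell, with a median log2 fold change of 0.07, and of the 15 members above it 5 fell and the others were not called, with a median of -0.14. All genes tested split the same way, with 16.1% higher and 2.49% lower below the median GC content, and 2.62% higher and 20.4% lower above it. Libraries of the same group also differed along GC content. Among the members, the Spearman correlation of a library's deviation from its group mean with GC content was 0.696 for SiHa PR replicate 2 and -0.804 for SiHa PR replicate 3, and 0.679 and -0.734 for SiHa PR P4HA3 replicates 1 and 2. A second fit therefore removed from each library the trend on GC content and transcript length before the same test. This removes any trend along GC content, whether it arose in the library or in the cells. In it, 2 members were higher (TYMS and TK1) and 6 lower (MCM5, MCM6, MCM7, GINS2, RPA2 and RPA3), or 4.44% and 13.3%, beside 10.6% and 7.94% of all genes. Of the calls without the correction, 1 higher and 3 lower were made again in the corrected fit. The sign of the log2 fold change turned for 14 of the 45 members, 1 of which, CDT1, had been called. MCM6, TK1, RPA2 and the further members named without an adjusted p under 0.05 in the first fit, beyond RFC1, RFC3, DNA2 and RPA3, were picked out after their values had been seen.

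**Figure D3:**
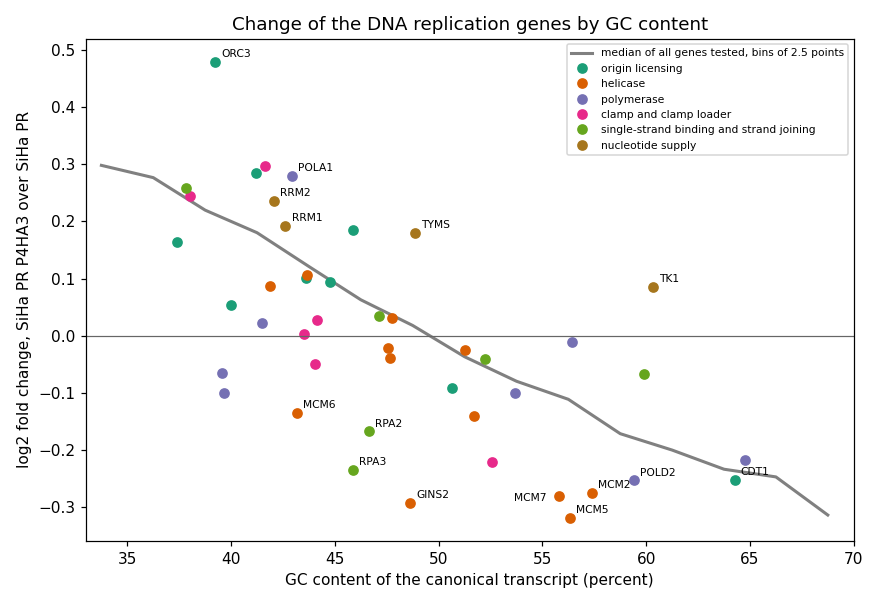
log2 fold change of the 45 members (points, coloured by role) against the GC content of the canonical transcript in percent, with the median of all genes tested in bins of GC content (grey line). The points follow the line downward (Spearman -0.66 over the 45 members), GINS2 and MCM6 lie below it and TK1 above it.

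Promoters carry the letters through which E2F factors read many of these genes, and those of 5 members with contrasting values are shown here: the helicase genes MCM2, MCM7 and GINS2, which fell, MCM6, which was lower after the correction, and TYMS, which rose. Each stretch of 220 bases, from RefSeq on GRCh38.p14, runs 5′ to 3′ from 200 bases before the annotated transcription start through the first 20 bases after it. Capitals mark E2F words (TTTCCCGC, TTTCGCGC, TTTGCCGC or TTTGGCGC, read on either strand).
MCM2 promoter, chr3:127598211-127598430, plus strand: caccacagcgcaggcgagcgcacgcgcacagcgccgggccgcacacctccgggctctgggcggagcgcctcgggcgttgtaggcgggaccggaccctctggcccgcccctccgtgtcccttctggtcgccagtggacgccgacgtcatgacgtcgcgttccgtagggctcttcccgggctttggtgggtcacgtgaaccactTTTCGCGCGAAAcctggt
MCM7 promoter, chr7:100101378-100101597, minus strand: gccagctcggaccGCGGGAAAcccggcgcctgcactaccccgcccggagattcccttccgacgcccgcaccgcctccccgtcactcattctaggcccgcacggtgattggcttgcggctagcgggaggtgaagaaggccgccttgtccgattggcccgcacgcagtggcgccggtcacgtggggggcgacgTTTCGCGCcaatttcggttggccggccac
GINS2 promoter, chr16:85688935-85689154, minus strand: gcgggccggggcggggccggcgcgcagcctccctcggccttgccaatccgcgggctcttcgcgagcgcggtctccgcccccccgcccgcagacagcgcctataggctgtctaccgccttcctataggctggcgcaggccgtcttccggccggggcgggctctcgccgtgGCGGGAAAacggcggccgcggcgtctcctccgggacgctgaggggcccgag
MCM6 promoter, chr2:135876424-135876643, minus strand: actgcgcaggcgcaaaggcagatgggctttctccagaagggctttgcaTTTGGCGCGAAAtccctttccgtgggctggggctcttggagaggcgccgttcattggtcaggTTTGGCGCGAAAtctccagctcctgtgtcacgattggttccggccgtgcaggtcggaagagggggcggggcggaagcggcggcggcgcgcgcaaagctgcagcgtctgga
TYMS promoter, chr18:657453-657672, plus strand: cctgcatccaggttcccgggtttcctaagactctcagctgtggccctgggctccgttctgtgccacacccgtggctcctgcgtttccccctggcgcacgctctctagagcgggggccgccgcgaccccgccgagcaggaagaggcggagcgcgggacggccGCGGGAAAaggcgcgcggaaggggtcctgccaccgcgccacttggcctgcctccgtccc
In MCM2, copies of TTTCGCGC on both strands overlapped in a single stretch that began at base 3 after the start. MCM6 held the same longer stretch at 2 places, 152 and 90 bases before the start, each an overlap of TTTGGCGC with TTTCGCGC on the other strand. MCM7 had words 187 and 9 bases before the start used here, GINS2 a word 31 bases before it and TYMS a word 39 bases before it. Only promoters that hold such a word could be shown, so its presence in all 5 follows from the choice and is no result.

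An E2F word was found in 19 of the 39 members with a RefSeq promoter here (48.7%), beside 3.99% of all 27305 genes with a promoter there, counting a gene if any of its windows of 300 bases held a word. With the shorter core TTTNNCGC the shares were 56.4% and 8.23%. The cell cycle homology region (TTTGAA or TTCGAA), known from promoters of mitotic genes, was in 2 of the 39 members (5.13%) and in 19.5% of all genes, but in 18 of 22 mitotic genes (81.8%). The CCAAT box (CCAAT) was in 24 of the 39 members (61.5%), in 39.7% of all genes and in 17 of the 22 mitotic genes. A match of letters is a description and not a bound site. An E2F word stood in 3 of the 5 promoters of members that rose, and in 4 of the 5 available for members that fell. Members with the word had log2 fold changes from -0.29 to 0.48 and a median of -0.02, and members without it a median of 0.03.

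**Figure D4:**
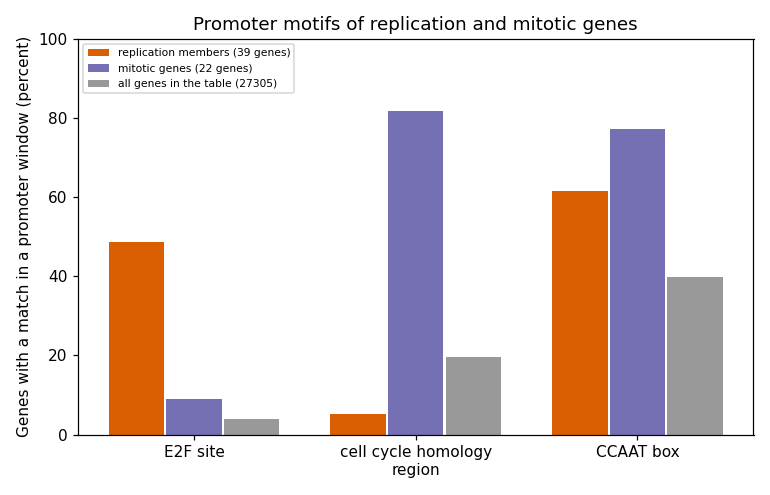
Share of genes, in percent, whose promoter windows hold an E2F word, a cell cycle homology region or a CCAAT box, for the replication members, the mitotic genes and all genes with a promoter in the RefSeq table. E2F words stand out in the members (48.7% beside 3.99% of all genes) and the cell cycle homology region in the mitotic genes (81.8% beside 19.5%).

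The replicative helicase held 4 of the 6 members that fell. MCM5 fell by 19.8% and MCM2 fell by 17.3%, with MCM7 and GINS2 between them, and the other 8 of its 12 genes were not called, with log2 fold changes from -0.14 to 0.11. The called genes were 33.3% of the 12, beside 11.4% of all genes called lower. MCM2, MCM5 and MCM7 lie above the median GC content of all genes tested, where 20.4% of all genes were called lower. In the corrected fit 4 of the 12 were called lower, beside 7.94% of all genes. All 3 P4HA3 libraries lay below all 3 SiHa PR libraries for 7 of the 12, beside 20.4% of all genes. The median log2 fold change was -0.09. MCM5 (chr22:35400134-35425431 on the plus strand, GRCh38), a subunit of the hexameric ring, was at 390.2, 387 and 361 CPM in SiHa PR replicates 1 to 3 and 329.8, 284 and 299 CPM in SiHa PR P4HA3 replicates 1 to 3. The highest P4HA3 library lay below the lowest SiHa PR library. MCM5 fell from 379.5 ± 16.1 to 304 ± 23.5 CPM (SD, n = 3 per group), with a log2 fold change of -0.32 (SE 0.0672, adjusted p = 0.0121), and stayed lower in the corrected fit (log2 fold change -0.19, adjusted p = 0.0169).

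MCM2 (chr3:127598410-127622436 on the plus strand), which also binds histones during replication, was at 576, 582 and 529 CPM in SiHa PR replicates 1 to 3 and 485, 438 and 471 CPM in SiHa PR P4HA3 replicates 1 to 3. The groups did not overlap. MCM2 fell from 562 ± 28.9 to 465 ± 24.0 CPM (SD, n = 3 per group), with a log2 fold change of -0.27 (SE 0.0637, adjusted p = 0.0168), and in the corrected fit the log2 fold change was -0.13 with an adjusted p of 0.0526. MCM7 (chr7:100092233-100101940 on the minus strand), part of the catalytic core of the ring, read 483, 498 and 463 CPM in the SiHa PR libraries and 431, 369 and 389 CPM in the P4HA3 libraries. The P4HA3 libraries were again all lower, with replicate 1 the nearest to the controls. MCM7 fell from 482 ± 17.5 to 397 ± 31.6 CPM (SD, n = 3 per group), with a log2 fold change of -0.28 (SE 0.0676, adjusted p = 0.0192), and was lower in the corrected fit too (log2 fold change -0.14, adjusted p = 0.0351). On the opposite strand AP4M1 shares 392 bases with MCM7 exons, or 7.90% of them, and had 262 to 384 counts per library beside at least 8302 for MCM7.

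The remaining 3 subunits of the ring were not called. MCM3 read 197, 196 and 202 CPM in the SiHa PR libraries and 182, 179 and 180.2 CPM in the P4HA3 libraries, without overlap (log2 fold change -0.14, SE 0.0490, adjusted p = 0.0656). MCM6 read 169, 159.5 and 177 CPM in the SiHa PR libraries and 158, 149 and 153 CPM in the P4HA3 libraries, also without overlap and also short of the threshold (log2 fold change -0.13, SE 0.0569, adjusted p = 0.110). MCM6 has a GC content of 43.2%, the lowest of the 6 subunits, and in the corrected fit its log2 fold change was -0.24 with an adjusted p of 0.00758. MCM4, which carries a main target of the firing kinase CDC7, read 653, 663 and 665 CPM in the SiHa PR libraries and 652, 638 and 639 CPM in the P4HA3 libraries, and the groups were almost level (log2 fold change -0.04, SE 0.0528, adjusted p = 0.615). The 6 subunits form 1 ring, and their transcripts per length were unequal. Per kb of exon, MCM2 was at 119 CPM and MCM7 at 97.1 CPM in SiHa PR cells, followed by MCM4 at 67.0, MCM3 at 54.5, MCM5 at 52.2 and MCM6 at 40.7 CPM per kb. With the length of the canonical transcript instead, MCM7 led at 195 CPM per kb, ahead of MCM2 at 164 and MCM4 at 163, so the order rests on the transcript lengths used. MCM4's share of the summed MCM2 to MCM7 level per kb of exon was 15.6% ± 0.409 in SiHa PR and 17.6% ± 0.584 in SiHa PR P4HA3 cells (SD, n = 3 per group), and MCM5's share was 12.1% ± 0.290 and 11.2% ± 0.369. These shares received no test.

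GINS2 (chr16:85676198-85690073 on the minus strand), a subunit of the GINS complex that ties CDC45 to the MCM ring, was at 128, 123 and 119 CPM in SiHa PR replicates 1 to 3 and 107, 96.6 and 98.3 CPM in SiHa PR P4HA3 replicates 1 to 3. All 3 control libraries lay above all 3 P4HA3 libraries. GINS2 fell from 123 ± 4.34 to 101 ± 5.51 CPM (SD, n = 3 per group), with a log2 fold change of -0.29 (SE 0.0599, adjusted p = 0.0110). Its GC content of 48.6% is close to the median of all genes, and the corrected fit gave nearly the same log2 fold change of -0.28 with an adjusted p of 0.00204. GINS2 and MCM6 were called lower in all 6 corrected fits with 1 library left out, MCM5 in 3 of them and MCM7 in 1. Without the correction, MCM2, MCM5, MCM7 and GINS2 were each called in 3 of the 6 fits, those without SiHa PR replicate 3, SiHa PR P4HA3 replicate 1 or SiHa PR P4HA3 replicate 2. Within GINS, the share of GINS2 in the summed level per kb of exon was 62.8% ± 0.933 in SiHa PR and 57.6% ± 0.740 in P4HA3 libraries (SD, n = 3 per group). The other GINS subunits, CDC45 and MCM10 did not pass the test in either fit.

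**Figure D5:**
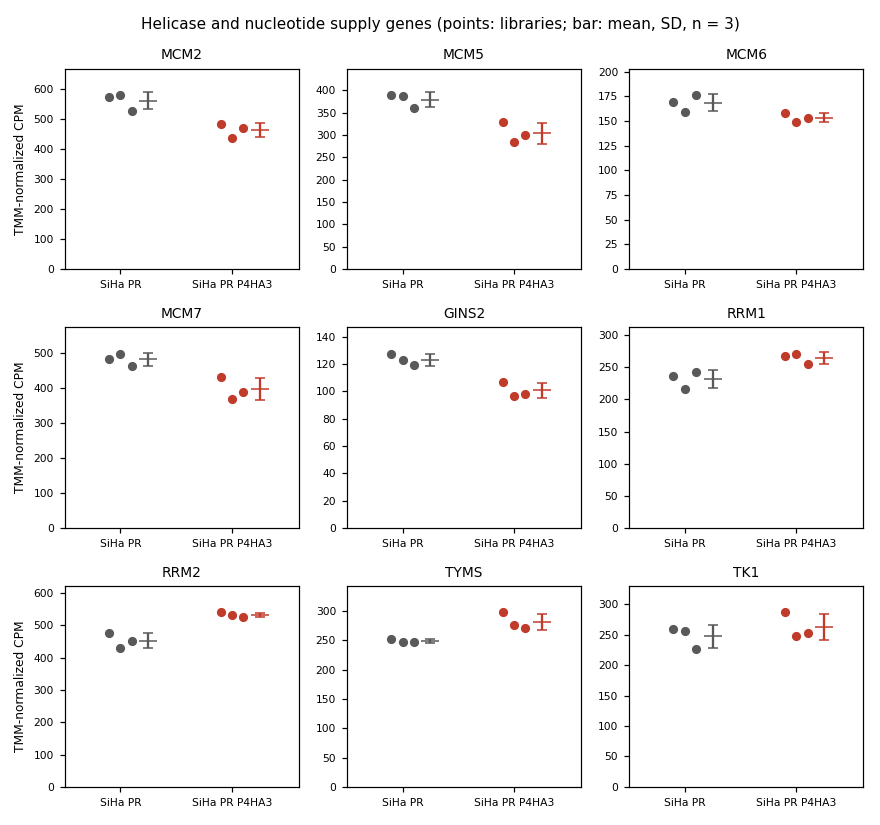
CPM in each library for the called helicase genes, MCM6 and the nucleotide supply genes. Points are libraries, and the cross with its bar is the group mean ± SD (n = 3). MCM2, MCM5, MCM6, MCM7 and GINS2 lie lower in all 3 SiHa PR P4HA3 libraries, RRM1, RRM2 and TYMS lie higher in all 3, and the TK1 libraries overlap.

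Of the 4 genes of deoxynucleotide supply, 3 rose (75%), beside 9.36% of all genes called higher. RRM2 rose by 17.8%, RRM1 by 14.2% and TYMS by 13.3%, TK1 was not called, and the median log2 fold change of the 4 was 0.19. The 3 genes that rose lie below the median GC content of all genes tested, where 16.1% of all genes were called higher. In the corrected fit 2 of the 4, TYMS and TK1, were called higher, beside 10.6% of all genes. RRM2 (chr2:10120698-10211725 on the plus strand), the regulatory subunit of ribonucleotide reductase that is made in S phase, was at 475, 429 and 452 CPM in SiHa PR replicates 1 to 3 and 539.9, 531 and 526 CPM in SiHa PR P4HA3 replicates 1 to 3. All P4HA3 libraries lay above all SiHa PR libraries, and they lay closer to each other than the controls did. RRM2 rose from 452 ± 23.2 to 532 ± 6.93 CPM (SD, n = 3 per group), with a log2 fold change of 0.24 (SE 0.0578, adjusted p = 0.0203), and in the corrected fit the log2 fold change was 0.11 with an adjusted p of 0.162. RRM1 (chr11:4094707-4138932 on the plus strand), the catalytic subunit, read 236, 216 and 242 CPM in the SiHa PR libraries and 268, 271 and 254 CPM in the P4HA3 libraries. Its groups did not overlap either. RRM1 rose from 232 ± 13.5 to 265 ± 8.97 CPM (SD, n = 3 per group), with a log2 fold change of 0.19 (SE 0.0600, adjusted p = 0.0461), and in the corrected fit it was 0.08 with an adjusted p of 0.247.

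TYMS (chr18:657653-673578 on the plus strand), which makes dTMP, was at 252, 247 and 247 CPM in SiHa PR replicates 1 to 3 and 298, 276 and 271 CPM in SiHa PR P4HA3 replicates 1 to 3. The control libraries were nearly equal and all P4HA3 libraries were higher. TYMS rose from 249 ± 3.22 to 282 ± 14.1 CPM (SD, n = 3 per group), with a log2 fold change of 0.18 (SE 0.0556, adjusted p = 0.0447), and stayed higher in the corrected fit (log2 fold change 0.21, adjusted p = 0.00378). On the opposite strand ENOSF1 shares 967 bases with TYMS exons, or 39.9% of them, and the strand setting of the counting is not given in the sources used here. ENOSF1 had between 644 and 778 counts per library and TYMS at least 5255. TK1 (chr17:78174091-78187233 on the minus strand), the salvage enzyme for thymidine, read 259, 257 and 226 CPM in the SiHa PR libraries and 287, 248 and 252 CPM in the P4HA3 libraries. The groups overlapped (log2 fold change 0.09, SE 0.0747, adjusted p = 0.414). TK1 has a GC content of 60.3%, and all genes tested of similar GC content had a median log2 fold change of -0.20. In the corrected fit it was called higher (log2 fold change 0.31, adjusted p = 0.000610). TYMS and TK1 were both called higher in all 6 corrected fits with 1 library left out. Without the correction, TYMS was not called when any of the 6 libraries was left out, RRM1 was called in 2 of those 6 fits and RRM2 in 3.

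Origin licensing held calls in both directions, 11.1% higher and 11.1% lower, beside 9.36% and 11.4% of all genes. ORC3 rose, CDT1 fell, and the other 7 of its 9 genes were not called, with log2 fold changes from -0.09 to 0.28 and a median over the 9 of 0.10. CDT1 (chr16:88803789-88809258 on the plus strand), which delivers the MCM ring to origins, was at 152, 164 and 139 CPM in SiHa PR replicates 1 to 3 and 136, 121 and 125 CPM in SiHa PR P4HA3 replicates 1 to 3. The highest P4HA3 library was just below the lowest control. CDT1 fell from 152 ± 12.3 to 128 ± 7.94 CPM (SD, n = 3 per group), with a log2 fold change of -0.25 (SE 0.0719, adjusted p = 0.0341). Its GC content of 64.3% is among the highest of the members, and in the corrected fit it was not called (log2 fold change 0.01, adjusted p = 0.922). ORC3 (chr6:87590067-87667453 on the plus strand), a core ORC subunit, was at 11.9, 12.7 and 14.997 CPM in SiHa PR replicates 1 to 3 and 14.5, 22.6 and 18.1 CPM in SiHa PR P4HA3 replicates 1 to 3. P4HA3 replicate 1 lay below SiHa PR replicate 3, so the groups overlapped. ORC3 had the largest log2 fold change of the members and also the largest standard error (log2 fold change 0.48, SE 0.153, adjusted p = 0.0493), and in the corrected fit it was 0.31 with an adjusted p of 0.0737.

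The further ORC subunits went both ways within small margins. ORC1, a subunit known to be degraded in S phase in human cells, read 58.9, 60.03 and 60.8 CPM in the SiHa PR libraries and 56.7, 55.0 and 57.0 CPM in the P4HA3 libraries, all lower but not called (log2 fold change -0.09, SE 0.0562, adjusted p = 0.251). ORC5 read 23.5, 19.5 and 22.8 CPM in the SiHa PR libraries and 25.9, 28.9 and 25.4 CPM in the P4HA3 libraries, all higher and just short of the threshold (log2 fold change 0.28, SE 0.0927, adjusted p = 0.0526). ORC5 was called higher in 4 of 11 alternative fits with all libraries, DESeq2 among them. ORC6 read 55.6, 48.1 and 52.3 CPM in the SiHa PR libraries and 60.1, 56.6 and 60.7 CPM in the P4HA3 libraries, all higher as well (log2 fold change 0.18, SE 0.0694, adjusted p = 0.0805). The ORC6 protein is the least conserved subunit of the complex. CDC6, the loading ATPase, read 94.2, 93.2 and 96.6 CPM in the SiHa PR libraries and 102, 101 and 99.5 CPM in the P4HA3 libraries (log2 fold change 0.09, SE 0.0516, adjusted p = 0.204), and GMNN, which encodes the CDT1 inhibitor geminin, read 21.6, 21.1 and 22.5 CPM in the SiHa PR libraries and 22.6, 24.3 and 23.1 CPM in the P4HA3 libraries (log2 fold change 0.10, SE 0.0742, adjusted p = 0.334). The P4HA3 libraries were higher than every control for both without passing the test. ORC2 and ORC4 were not called. In the summed ORC level per kb of exon, the share of ORC1 was 38.5% ± 1.51 in SiHa PR and 33.7% ± 1.43 in P4HA3 libraries (SD, n = 3 per group). Per kb of the canonical transcript these shares were 23.7% and 20.1%, and ORC6 then had the largest share (39.7% in SiHa PR), so this order too rests on the lengths used.

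Among the replicative polymerases, POLA1 rose and POLD2 fell (12.5% each way, beside 9.36% and 11.4% of all genes). The other 6 of 8 genes were not called, with log2 fold changes from -0.22 to 0.02. POLA1 (chrX:24693873-24996986 on the plus strand), the catalytic subunit of DNA polymerase alpha, was at 29.6, 31.6 and 32.5 CPM in SiHa PR replicates 1 to 3 and 36.8, 38.9 and 38.1 CPM in SiHa PR P4HA3 replicates 1 to 3. The lowest P4HA3 library was above the highest control. POLA1 rose from 31.2 ± 1.502 to 37.9 ± 1.05 CPM (SD, n = 3 per group), with a log2 fold change of 0.28 (SE 0.0685, adjusted p = 0.0202), and in the corrected fit it was 0.14 with an adjusted p of 0.0935. POLD2 (chr7:44114631-44124358 on the minus strand), an accessory subunit of polymerase delta, was at 273, 287 and 247 CPM in SiHa PR replicates 1 to 3 and 252, 209 and 218 CPM in SiHa PR P4HA3 replicates 1 to 3. P4HA3 replicate 1 lay above SiHa PR replicate 3, so the groups overlapped. POLD2 fell from 269 ± 20.2 to 226 ± 22.6 CPM (SD, n = 3 per group), with a log2 fold change of -0.25 (SE 0.0807, adjusted p = 0.0494), close to the threshold, and in the corrected fit was at -0.04 with an adjusted p of 0.550. POLD1, the catalytic subunit of the same enzyme, read 144, 150.5 and 132 CPM in the SiHa PR libraries and 132, 115 and 119 CPM in the P4HA3 libraries. P4HA3 replicate 1 stood level with SiHa PR replicate 3. POLD1 was not called (log2 fold change -0.22, SE 0.0712, adjusted p = 0.0540), has the highest GC content of the members (64.8%), and its sign turned in the corrected fit (log2 fold change 0.04, adjusted p = 0.598). POLD1 was called lower in 6 of 11 alternative fits with all libraries, DESeq2 among them. POLA2, PRIM1, PRIM2, POLE and POLE2 were not called in either fit. Exons of POLA2, PRIM1 and POLD1 overlap those of other genes on the same strand, and their counts are uncertain for that reason. PRIM1 shares 139 bases (4.20% of its exons) with NACA, which had 2017 to 3260 counts per library beside at least 322 for PRIM1. POLA2 shares 2012 bases (16.8%) with a gene of 7 to 15 counts per library. For POLD1 the shared stretch was 426 bases (8.63% of its exons) and the other gene had 0 counts in every library.

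No gene of the clamp and its loader passed edgeR's quasi-likelihood test. PCNA, the sliding clamp and a common label of S phase cells, was at 204, 185 and 195 CPM in SiHa PR replicates 1 to 3 and 199.7, 195 and 192 CPM in SiHa PR P4HA3 replicates 1 to 3. The libraries of both groups intermingled. PCNA averaged 195 ± 9.57 CPM in SiHa PR and 196 ± 3.91 CPM in SiHa PR P4HA3 libraries (SD, n = 3 per group), and the 95% interval of its log2 fold change ran from -0.12 to 0.12. RFC1, the large subunit of the loader, read 31.8, 30.4 and 38.7 CPM in the SiHa PR libraries and 34.9, 47.6 and 41.5 CPM in the P4HA3 libraries, with overlap (log2 fold change 0.30, SE 0.121, adjusted p = 0.09995). RFC3, a small subunit, read 34.7, 32.5 and 37.1 CPM in the SiHa PR libraries and 40.8, 47.0 and 36.0 CPM in the P4HA3 libraries, with overlap as well (log2 fold change 0.25, SE 0.0985, adjusted p = 0.0961). RFC2, another small subunit, lay lower in all P4HA3 libraries, at 101, 104 and 98.5 CPM in the SiHa PR libraries and 96.7, 81.4 and 82.5 CPM in the P4HA3 libraries (log2 fold change -0.22, SE 0.0723, adjusted p = 0.0535). Of the 6 genes, 3 had an unadjusted p under 0.05. RFC2 was called lower in 7 of 11 alternative fits with all libraries, DESeq2 and edgeR's exact test among them, and RFC1 was called higher in 2, the replicate block and the fit without a filter on low counts. The corrected log2 fold changes were 0.14 for RFC1 and 0.06 for RFC3, with adjusted p-values of 0.218 and 0.584. RFC4 and RFC5 were not called in either fit.

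Single-strand binding and strand joining gave no call in the uncorrected fit, with 3 of 6 genes at an unadjusted p under 0.05 and none called by DESeq2. Replication protein A, the RPA trimer, coats exposed single strands. RPA2 read 154, 148 and 148 CPM in the SiHa PR libraries and 141, 126 and 135 CPM in the P4HA3 libraries, and every P4HA3 library was lower (log2 fold change -0.17, SE 0.0579, adjusted p = 0.0634). RPA3, the smallest subunit, read 61.6, 53.4 and 57.8 CPM in the SiHa PR libraries and 56.2, 43.6 and 47.2 CPM in the P4HA3 libraries, with overlap through P4HA3 replicate 1 (log2 fold change -0.23, SE 0.0948, adjusted p = 0.0988). Both subunits were called lower in the corrected fit, RPA2 with a log2 fold change of -0.18 (adjusted p = 0.0129) and RPA3 with -0.26 (adjusted p = 0.0395). RPA1 was not called in either fit. DNA2, a nuclease and helicase that trims flaps, read 19.4, 19.6 and 21.0 CPM in the SiHa PR libraries and 21.7, 26.8 and 23.3 CPM in the P4HA3 libraries. All P4HA3 libraries were higher (log2 fold change 0.26, SE 0.0932, adjusted p = 0.0718), but the corrected log2 fold change was 0.04 with an adjusted p of 0.672. Without a filter on low counts RPA3 was called lower and DNA2 higher, and with the replicate block RPA3 was called lower. Without SiHa PR P4HA3 replicate 1, RPA2 and RPA3 were called lower and DNA2 higher. FEN1 and LIG1, the main flap nuclease and the ligase of the lagging strand, were not called. FEN1 shares 49 exon bases on the same strand with FADS2, which had 1902 to 6074 counts per library beside at least 2993 for FEN1.

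Other genes of the replication pathway, from a list of 41 of which 40 were tested, also held calls in both directions, with 5 higher (12.5%), 4 lower (10%) and a median log2 fold change of 0.08, beside 9.36% and 11.4% of all genes. Without SiHa PR replicate 1 or SiHa PR replicate 2 edgeR called 0 of the 40, with 12 and 10 at an unadjusted p under 0.05, against 17 with all libraries. Without SiHa PR P4HA3 replicate 3 it called 1 higher and 0 lower, with 15 at an unadjusted p under 0.05. DBF4, the activating subunit of the CDC7 kinase that fires origins, read 22.5, 21.6 and 25.5 CPM in the SiHa PR libraries and 29.5, 35.6 and 31.5 CPM in the P4HA3 libraries. The groups did not overlap, and DBF4 rose in both fits (log2 fold change 0.47, SE 0.0945, adjusted p = 0.0105; corrected 0.26, adjusted p = 0.00821). CLSPN, which encodes the fork protein claspin, also rose in both (log2 fold change 0.37, adjusted p = 0.0374; corrected 0.22, adjusted p = 0.0413). TOP2A, the topoisomerase that untangles sister DNA, rose with a log2 fold change of 0.50 (adjusted p = 0.0466), MTBP, a partner of the firing factor TICRR, with 0.41 (adjusted p = 0.0271), and the histone chaperone gene ASF1A with 0.29 (adjusted p = 0.0393). In the corrected fit none of these 3 was called, with 0.27 for TOP2A (adjusted p = 0.0559), 0.18 for MTBP (adjusted p = 0.157) and 0.06 for ASF1A (adjusted p = 0.604). CHAF1B, a subunit of chromatin assembly factor 1, read 81.5, 80.4 and 79.1 CPM in the SiHa PR libraries and 69.99, 68.0 and 67.2 CPM in the P4HA3 libraries. It fell in both fits (log2 fold change -0.23, adjusted p = 0.0168; corrected -0.25, adjusted p = 0.00371), as did DCTPP1, which clears dCTP, at -0.34 (adjusted p = 0.0257; corrected -0.19, adjusted p = 0.0361). The helicase gene RECQL4 fell with a log2 fold change of -0.29 (adjusted p = 0.0166) and the ORC-associated gene LRWD1 with -0.22 (adjusted p = 0.0395). Neither was called in the corrected fit, with -0.04 for RECQL4 (adjusted p = 0.591) and 0.04 for LRWD1 (adjusted p = 0.539). In that fit 4 of the 40 genes were called higher and 2 lower, beside 10.6% and 7.94% of all genes. CHTF18 and UHRF1 were called higher there and not in the first fit, and are named after their values had been seen.

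Values of 25 mitotic genes, listed with earlier results of these data known, are given for comparison. Of the 25 genes, 17 rose (68%, beside 9.36% of all genes) and the other 8 were not called. A log2 fold change above 0 was seen in 24 of 25, and the median was 0.48, against -0.01 for the replication members. In the corrected fit 16 of the 25 mitotic genes were higher, beside 10.6% of all genes. Their corrected median was 0.37, against -0.02 for the members. Among the called genes the largest log2 fold changes were those of CENPE, a kinetochore motor (log2 fold change 1.62, adjusted p = 0.0313), the kinetochore gene CENPF (0.91, adjusted p = 0.0449), the cytokinesis genes ANLN (0.67, adjusted p = 0.0104) and KIF23 (0.63, adjusted p = 0.00162), and NUF2 of the NDC80 complex (0.58, adjusted p = 0.0396). CENPE read 0.986, 1.13 and 1.72 CPM in the SiHa PR libraries and 1.93, 7.07 and 2.92 CPM in the P4HA3 libraries. SiHa PR P4HA3 replicate 2 stood far above the others, and leaving it out gave log2 fold changes of 0.92 for CENPE and 0.47 for CENPF. No test compared the lists. Without SiHa PR replicate 1, SiHa PR replicate 2 or SiHa PR P4HA3 replicate 3, edgeR called 9, 7 and 9 mitotic genes higher. Of all genes tested, those fits called 229 of 15331, 163 of 15380 and 275 of 15358 higher. Of 8 genes for E2F factors, cyclin E and CDC25A, 1 rose and 3 fell (12.5% and 37.5%, beside 9.36% and 11.4% of all genes). E2F8, a repressor of the family, rose (log2 fold change 0.42, adjusted p = 0.0399). The activators E2F1 (-0.31, adjusted p = 0.0155) and E2F2 (-0.33, adjusted p = 0.0126) fell, as did CCNE1, the cyclin of the G1/S transition (-0.23, adjusted p = 0.0208). In the corrected fit E2F1 was not called (-0.08, adjusted p = 0.185). E2F2 (-0.20, adjusted p = 0.0248) and CCNE1 (-0.15, adjusted p = 0.0396) were still called lower, and E2F8 (0.34, adjusted p = 0.0356) higher.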

How the data were processed

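RNA from 3 SiHa PR and 3 SiHa PR P4HA3 samples was sequenced. Per the methods, the authors selected poly-A RNA, made dUTP strand-specific libraries, sequenced paired ends, aligned reads with STAR to GRCh38 (Ensembl annotation) and counted them with HTSeq. The submitters' processing notes name HISAT2, and which aligner made the table cannot be told. The deposited values are raw counts per gene, without normalization. Tool versions, the strand setting and the handling of reads with several matches are not given in the sources used here.

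Counts were analysed with edgeR 4.0.16 in R 4.3.3: filterByExpr (minimum count 10), TMM, glmQLFit and glmQLFTest, all 6 libraries, no covariate, Benjamini-Hochberg over 15130 genes, adjusted p under 0.05. The common biological coefficient of variation was 7.66%. Libraries within a group differed by more than counting noise (chi-square per degree of freedom 4.79 to 16.2). Symbols, positions, lengths and GC content came from GENCODE 44, which matched 60463 of 60664 identifiers. In the corrected fit, each library's smooth trend along GC content and transcript length, estimated with mgcv 1.9.3, was entered as an offset. Promoter windows were RefSeq's of GRCh38.p14, which held 39 of the 45 members.

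The members and gene lists were chosen with earlier results of these data known. Genes named by rule were P4HA3, members with an adjusted p under 0.05, in roles with fewer than 2 of these the largest log2 fold changes until 2 were named, and up to 5 called genes in each direction of each other list. Alternatives were DESeq2 1.42.0, the exact test, limma-voom (limma 3.58.1), other normalizations and filters, a replicate block, left-out libraries and an adjusted p under 0.01.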

Additional observations from a re-analysis of the deposited data

How the results depend on the processing

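With all 6 libraries, 11 alternatives were run: DESeq2, edgeR's exact test, limma-voom, other scalings, other filters, a replicate block and the GC and length correction alone or with the block. MCM5, MCM7 and GINS2 were called lower in all 11, MCM2 in 10, CDT1 in 9 and POLD2 in 8. RRM2 and TYMS were called higher in 10, POLA1 in 9, RRM1 in 8 and ORC3 in 6. The counts of called members were 5 higher and 6 lower. Members called higher were 2 with upper-quartile scaling, 9 without a filter on low counts and 2 with the correction, and nucleotide supply genes called higher were 1 with upper-quartile scaling. The replicate numbers are shared by the groups, and the sample titles do not say whether equal numbers belong together. The correlation of deviations was 0.334, -0.0841 and 0.0208 for numbers 1, 2 and 3, and only number 1 correlated best with its own. With the replicate block 7 members were higher and 9 lower. Other replication genes called higher were 8 with the exact test, 12 without a filter, 10 with the block and 8 with block and correction, and those called lower were 2 with the correction. E2F and cyclin E genes called higher were 2 with the exact test, 3 without a filter and 3 with the block. At an adjusted p under 0.01, 0 members were called in either direction by edgeR (22 had an unadjusted p under 0.05), 0 of the other replication and E2F genes, and 7 mitotic genes.

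Leaving out 1 library without the correction gave 0 to 7 members higher and 0 to 10 lower, 0 to 4 helicase genes lower, 0 to 2 nucleotide supply genes higher, 0 to 12 other replication genes higher and 0 to 6 lower, 7 to 22 mitotic genes higher, and 0 to 3 E2F and cyclin E genes in either direction. The correction with each library left out was added after seeing the data. It gave 3, 2, 2, 3, 4 and 2 members higher and 2, 2, 4, 8, 4 and 3 lower without SiHa PR replicates 1, 2 and 3 and SiHa PR P4HA3 replicates 1, 2 and 3, and at most 5 helicase genes lower. The members' median log2 fold change was then between -0.049 and 0.012. ORC3 was called in 1 of these 6 corrected fits, and POLA1, CDT1 and POLD2 in 0. In the 6 uncorrected fits with 1 library left out, POLA1 was called in 3, and ORC3, CDT1 and POLD2 in 2 each.

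With the correction the sign turned for 14 of the 45 members, and the cause was not tested. Of the genes given with values in the text, these turned in some fit. CDT1 was 0.0072 with the correction, 0.0078 with the block added, and between -0.308 and 0.036 over all fits with a library left out. POLD1 was 0.035 with the correction, alone or with the block, and LRWD1 0.041 in both. The PCNA log2 fold change was -0.0042 with upper-quartile scaling, -0.063 with the correction and -0.062 with the block added. Over all fits with a library left out, corrected or not, PCNA ran from -0.081 to 0.039, CDC6 from -0.037 to 0.111, ASF1A from -0.00091 to 0.373, POLD1 from -0.276 to 0.057 and LRWD1 from -0.271 to 0.0596.
Per kb of the canonical transcript instead of all exons, the level in SiHa PR was 164 CPM for MCM2, 64.7 for MCM3, 163 for MCM4, 109.7 for MCM5, 44.8 for MCM6 and 195 for MCM7. Differences among the members were at most 1.39-fold, and the counts of calls depended on which library was left out. The cause of this was not tested.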
